A study of Mus musculus with 34 samples.

Results

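Trem2, its adaptor Tyrobp, the enzymes Syk, Plcg2 and Inpp5d and the receptor Cd33 were followed in poly-A RNA-seq of mouse brain cortex. The transcription factor gene Spi1 and the lipoprotein gene Apoe were followed with them. These 8 genes were taken by name from the 55385 genes of the count table, and all 8 were among the 17632 genes with enough reads to be tested. The 34 mice were 6 months old, and the groups were 5xFAD-Dp16 on tofacitinib (4 mice) or sham (3), 5xFAD on tofacitinib (5) or sham (4), Dp16 on tofacitinib (5) or sham (3), and wild-type C57BL/6J on tofacitinib (5) or sham (5). 5xFAD mice carry transgenes under a neuronal Thy1 promoter and form amyloid plaques, and serve as a model of Alzheimer's disease. Dp16 mice carry a duplicated stretch of mouse chromosome 16, which models trisomy 21. Tofacitinib, a Janus kinase inhibitor, was given at 15 mg/kg by daily gavage for a month, and sham mice received 0.5% methylcellulose by the same route, so that all groups shared the gavage. 16 mice were female and 18 were male.

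Trem2 is a surface receptor of microglia, the resident macrophages of the brain, and binds lipids and lipoproteins, Apoe among them. It has no signalling tail of its own and passes its signal through Tyrobp, whose phosphorylated tail recruits the kinase Syk. Syk in turn activates phospholipase Plcg2, while the lipid phosphatase Inpp5d counteracts the pathway, and human CD33 acts as an inhibitory receptor for sialic acids. In mouse models of amyloid, microglia around plaques need Trem2 to take up their activated state. Spi1 encodes PU.1, the factor that sets the myeloid programme, and Apoe comes mostly from astrocytes in healthy brain and also from activated microglia. In whole cortex, fewer cells of a type and less RNA per cell cannot be told apart.

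By GENCODE M21 on build GRCm38, Trem2 (ENSMUSG00000023992.14) lies on chromosome 17 (48346401 to 48354147, plus strand), Tyrobp (ENSMUSG00000030579.10) on chromosome 7 (30413760 to 30417585, plus strand) and Apoe (ENSMUSG00000002985.16) on chromosome 7 (19696109 to 19699188, minus strand). Plcg2 (ENSMUSG00000034330.10) lies on chromosome 8 (117498291 to 117635142) and Syk (ENSMUSG00000021457.14) on chromosome 13 (52583173 to 52648792), both on the plus strand. Inpp5d (ENSMUSG00000026288.14) lies on chromosome 1 (87620312 to 87720507, plus strand), Cd33 (ENSMUSG00000004609.11) on chromosome 7 (43524216 to 43544428, minus strand) and Spi1 (ENSMUSG00000002111.8) on chromosome 2 (91082390 to 91115756, plus strand). None of the 8 lies on the chromosome that is duplicated in Dp16 mice, and 0 bases of their annotated exons overlap an exon of another gene.

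RefSeq promoter windows on build GRCm38.p6, from 250 bases before to 50 bases after a start site, were at hand for 6 of the 8 genes. They are shown for Trem2 and Plcg2, the pair of genes nearest to the significance threshold between 5xFAD carriers and non-carriers, and for Apoe, which differed in the opposite direction. Capitals mark GAGGAA, the core of the PU.1 recognition sequence, searched on both strands, so that it appears as TTCCTC when it lies on the other strand. The windows are chr17:48346151-48346450 (plus strand) for Trem2, chr8:117498025-117498324 (plus strand) for Plcg2 and chr7:19699139-19699438 (minus strand) for Apoe, each ending 50 bases into the transcript.
Trem2: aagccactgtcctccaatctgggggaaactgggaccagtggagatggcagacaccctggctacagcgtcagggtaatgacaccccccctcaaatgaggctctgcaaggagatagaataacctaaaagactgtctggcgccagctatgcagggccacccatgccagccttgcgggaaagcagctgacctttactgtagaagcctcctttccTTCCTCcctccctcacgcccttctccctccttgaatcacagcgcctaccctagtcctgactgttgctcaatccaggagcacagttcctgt
Plcg2: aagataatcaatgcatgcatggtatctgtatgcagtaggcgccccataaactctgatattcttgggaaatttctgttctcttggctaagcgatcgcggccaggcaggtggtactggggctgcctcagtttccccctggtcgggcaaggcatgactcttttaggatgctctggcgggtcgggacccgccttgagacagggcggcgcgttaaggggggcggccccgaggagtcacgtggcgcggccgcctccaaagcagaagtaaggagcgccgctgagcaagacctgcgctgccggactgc
Apoe: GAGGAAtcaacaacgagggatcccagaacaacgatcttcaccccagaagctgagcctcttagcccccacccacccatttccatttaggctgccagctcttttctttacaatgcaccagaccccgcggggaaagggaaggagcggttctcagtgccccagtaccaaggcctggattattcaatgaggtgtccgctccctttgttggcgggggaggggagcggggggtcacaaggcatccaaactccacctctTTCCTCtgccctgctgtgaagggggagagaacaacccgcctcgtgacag

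The Trem2 window held 1 match, 40 bases before the start site and on the opposite strand, the Plcg2 window held 0 and this Apoe window held 2. Counting all windows, 6 of the 9 of these genes held the 6 letters, against 28.3% of the 32851 mouse promoter windows of the same length. Windows with a match belonged to 5 of the 6 genes, a share per gene for which no background was computed. Apoe and Syk had more than 1 window, and chr7:19698572-19698871 and chr7:19698349-19698648 of Apoe overlapped. A match is only a match of letters.

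Library totals ran from 16029841 to 21388650 counted reads. They tended to be higher in 5xFAD carriers (16684289 to 21388650) than in non-carriers (16029841 to 19230978). All 5xFAD-Dp16 libraries (19005980 to 21388650) were above all Dp16 libraries (16594635 to 17696263). The part of depth, or of a processing difference that goes with it, in the 5xFAD differences was not tested. A principal component plot set 5xFAD tofacitinib 2 and wild-type sham 2 far from the rest. The summed level of 8 neuron markers was 3730 CPM (counts scaled to the library total) in 5xFAD tofacitinib 2, against 5682 to 8581 CPM in the 32 libraries other than these, and its oligodendrocyte markers summed to 13370 CPM, against 5192 to 9184 CPM. Its summed choroid plexus markers, 1490 CPM, were above the 4.98 to 960.6 CPM of those 32 libraries. It was also above them in microglia markers (1118 CPM, against 688.6 to 1033), in genes of plaque-associated microglia (782.1 CPM, against 400.3 to 584.1) and in reactive astrocyte markers (784.1 CPM, against 214.2 to 513.3), and below them in astrocyte markers (7249 CPM, against 7856 to 11170). Values of wild-type sham 2 lay within the range of those libraries for neuron, oligodendrocyte and choroid plexus markers, while its astrocyte sum of 7793 CPM lay below their 7856 to 11170 CPM. Its genes of plaque-associated microglia summed to 397.6 CPM, just below the 400.3 to 584.1 CPM of those libraries. Results are therefore also given without both. All 16 microglia markers and all 10 astrocyte markers were detected, with no marker at 0 in every library.

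Per kilobase of gene length, Apoe was by far the most abundant of the 8, with RPKM values (reads scaled by gene length and library total) between 1114 and 2189 over the 34 libraries. Tyrobp followed with 21.34 to 119.9 RPKM and Trem2 with 10.15 to 33.14 RPKM. The ranges of Inpp5d (1.753 to 3.68 RPKM) and Spi1 (1.666 to 3.547 RPKM) lay on top of each other, and so did most of the ranges of Cd33 (0.8818 to 2.02 RPKM), Plcg2 (0.5402 to 1.788 RPKM) and Syk (0.3655 to 1.272 RPKM). Syk rested on few reads, 37 to 159 counts a library, as did Plcg2 (39 to 153) and Spi1 (58 to 129). Trem2 had 202 to 757 counts and Apoe 36553 to 80395.

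**Figure D1:**
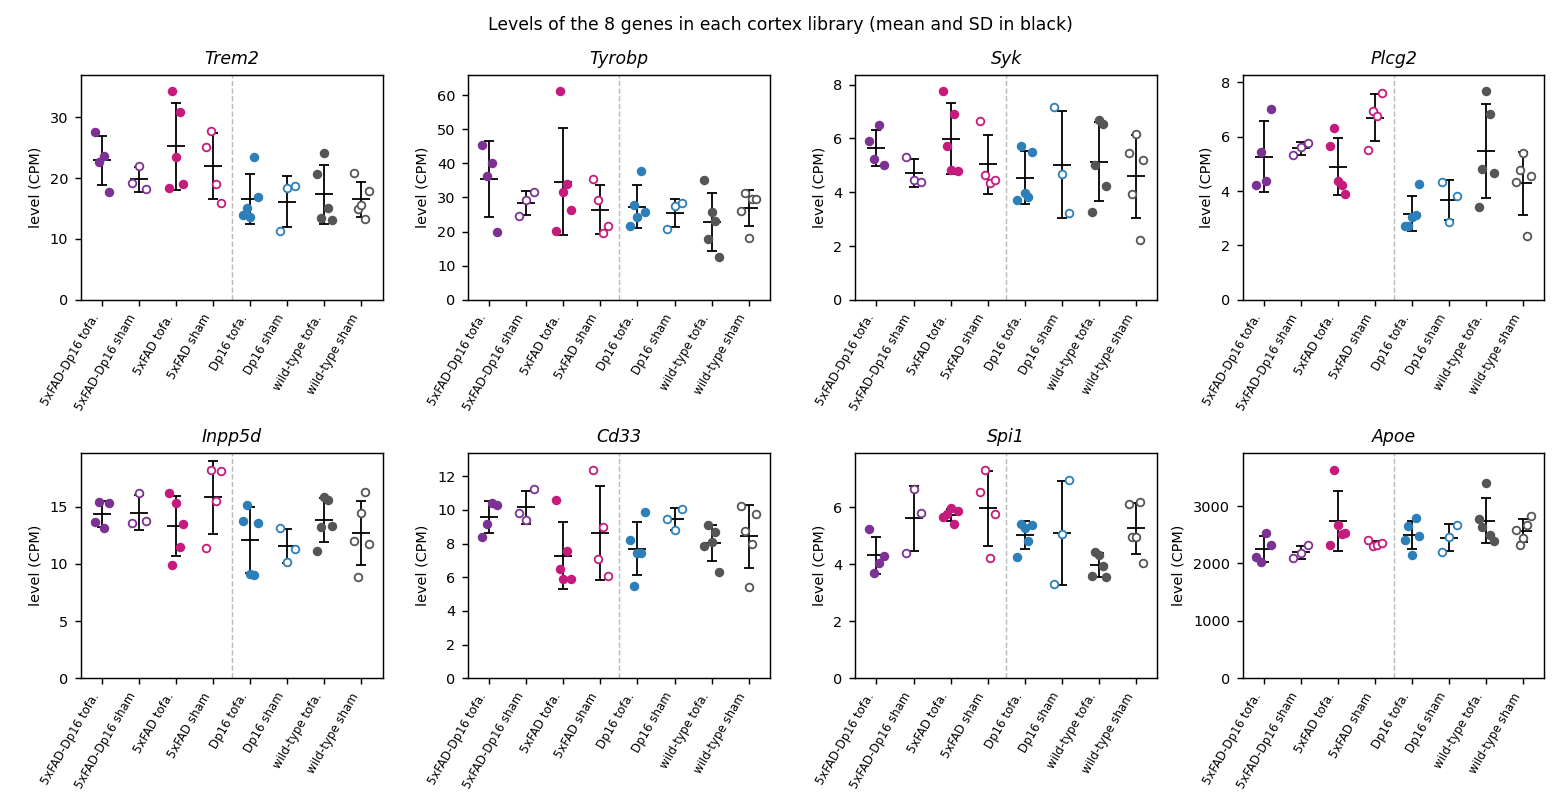
Level in CPM of each of the 8 genes (vertical axes, starting at 0) in every library, by group (horizontal axes). Points are mice, filled for tofacitinib and open for sham, black bars are mean and SD, and the dashed line parts the 4 groups with the 5xFAD transgenes on the left from the 4 without. Trem2 lies between 15.96 and 34.24 CPM on the left and between 11.32 and 24.17 CPM on the right.

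The first comparison asked whether these genes differed with the amyloid transgenes. Averaged over both treatments and both Dp16 states, Trem2 was 1.35-fold higher in 5xFAD carriers than in non-carriers, Plcg2 1.37-fold higher and Apoe 0.924-fold as high, but none of the 8 genes passed the test. Of the 8 genes 7 had a positive difference, with a median of 0.18 on the log2 scale over the 8 and 0.0033 over all 17632 genes. Among all genes, 0.42% passed an adjusted p of 0.05 in this comparison (74 of 17632), a count that ran from 15 without Dp16 sham 2 to 293 without wild-type sham 3. With edgeR, 0 of the 8 genes passed and 4 had an unadjusted p under 0.05, as had 20.3% of all genes (3580 of 17632). DESeq2 called 1 of the 8 and limma-voom 3, in fits that called 6.93% and 3.34% of the genes they tested.

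Trem2 averaged 22.79 ± 5.20 CPM in 5xFAD carriers (SD, n = 16) and 16.68 ± 3.71 CPM in non-carriers (SD, n = 18). In 5xFAD-Dp16 mice on tofacitinib the 4 libraries had 27.55, 22.68, 23.64 and 17.68 CPM, and the 3 sham libraries had 19.20, 22.05 and 18.15 CPM. In 5xFAD mice the tofacitinib libraries had 18.44, 34.24, 23.46, 30.78 and 18.97 CPM and the sham libraries 25.15, 27.75, 18.94 and 15.96 CPM. All 16 carriers were thus above the non-carrier median of 15.33 CPM. In Dp16 mice Trem2 had 13.87, 15.04, 13.53, 23.52 and 16.89 CPM on tofacitinib and 11.32, 18.29 and 18.76 CPM on sham. Wild-type mice had 20.62, 13.51, 24.17, 15.07 and 13.15 CPM on tofacitinib and 20.84, 14.94, 15.59, 13.33 and 17.85 CPM on sham. The sets overlapped: 5 of 16 carriers lay above the highest non-carrier, and 10 of 18 non-carriers lay below the lowest carrier. The log2 difference was 0.43 (SE 0.11, 95% interval 0.20 to 0.65), with an adjusted p of 0.0661 over all genes, rank 142 by p. Ordered by mean level, 5xFAD tofacitinib (25.18 CPM) came first, then 5xFAD-Dp16 tofacitinib (22.89), 5xFAD sham (21.95), 5xFAD-Dp16 sham (19.80), wild-type tofacitinib (17.31), Dp16 tofacitinib (16.57), wild-type sham (16.51) and Dp16 sham (16.12). Each step between neighbours in that order was smaller than the larger SD of the pair.

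Tyrobp, the adaptor that carries the signal of Trem2, averaged 31.62 ± 10.9 CPM in 5xFAD carriers (SD, n = 16) and 25.67 ± 6.19 CPM in non-carriers (SD, n = 18), a log2 difference of 0.28 (SE 0.14, adjusted p = 0.249). Its highest value, 61.11 CPM, was that of 5xFAD tofacitinib 2, against 20.29 to 33.82 CPM in the other mice of that group. Of the 16 carriers, 11 lay above the non-carrier median of 25.93 CPM, and the sets overlapped over most of their ranges. Without both libraries that stood apart the log2 difference was 0.22 for Tyrobp (adjusted p = 0.306), 0.38 for Trem2 (adjusted p = 0.0746) and 0.43 for Plcg2 (adjusted p = 0.0615).

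Downstream, Plcg2, which cleaves a membrane lipid into second messengers, averaged 5.56 ± 1.14 CPM in 5xFAD carriers (SD, n = 16) and 4.20 ± 1.42 CPM in non-carriers (SD, n = 18). The log2 difference was 0.45 (SE 0.12, 95% interval 0.21 to 0.69, adjusted p = 0.0661), and 13 of 16 carriers lay above the non-carrier median of 4.291 CPM. 5xFAD-Dp16 mice had 4.217, 5.449, 4.357 and 7.02 CPM on tofacitinib and 5.318, 5.605 and 5.782 CPM on sham, and 5xFAD mice had 5.657, 6.333, 4.375, 4.227 and 3.9 CPM on tofacitinib and 5.509, 6.924, 6.755 and 7.605 CPM on sham. Dp16 mice had 2.702, 2.707, 3.047, 3.121 and 4.267 CPM on tofacitinib and 4.315, 2.87 and 3.822 CPM on sham. The wild-type values were 3.419, 4.812, 7.668, 6.824 and 4.649 CPM on tofacitinib and 4.335, 4.769, 5.402, 2.341 and 4.543 CPM on sham. The highest of all values was thus that of a wild-type mouse on tofacitinib, and 0 of 16 carriers exceeded it. Syk, the kinase that docks on Tyrobp, averaged 5.43 ± 1.04 CPM in carriers (n = 16) and 4.804 ± 1.36 CPM in non-carriers (n = 18), a log2 difference of 0.15 (SE 0.13, adjusted p = 0.541).

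Inpp5d, the phosphatase gene, averaged 14.43 ± 2.33 CPM in 5xFAD carriers (SD, n = 16) and 12.66 ± 2.39 CPM in non-carriers (SD, n = 18). Its log2 difference was 0.20 (SE 0.089, adjusted p = 0.201). Cd33 averaged 8.73 ± 2.04 CPM in carriers and 8.28 ± 1.46 CPM in non-carriers (log2 difference 0.08, SE 0.10, adjusted p = 0.678). Spi1 averaged 5.41 ± 1.03 CPM in carriers and 4.81 ± 0.987 CPM in non-carriers (log2 difference 0.15, SE 0.095, adjusted p = 0.365). For these 3 genes carriers and non-carriers overlapped over most of their ranges.

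Apoe, the lipid carrier that Trem2 can bind, averaged 2415 ± 370 CPM in 5xFAD carriers (SD, n = 16) and 2578 ± 283 CPM in non-carriers (SD, n = 18). The log2 difference was -0.11 (SE 0.055, 95% interval -0.23 to -0.0018, adjusted p = 0.239), and only 3 of 16 carriers lay above the non-carrier median of 2538 CPM. The 4 sham 5xFAD libraries, with 2412, 2311, 2315 and 2350 CPM, were the tightest group, and wild-type sham libraries had 2577, 2324, 2447, 2672 and 2835 CPM. 5xFAD tofacitinib 2 had 3637 CPM, against 2328 to 2666 CPM in the other mice of its group. Without both libraries that stood apart the log2 difference was -0.16 (adjusted p = 0.0659). On the log2 scale, Apoe lay 2.99 ± 0.214 above the mean of the astrocyte markers in carriers (SD, n = 16) and 3.12 ± 0.161 above it in non-carriers (SD, n = 18). On tofacitinib these values were 3.07 ± 0.259 in carriers (n = 9) and 3.08 ± 0.194 in non-carriers (n = 10), and on sham 2.89 ± 0.0679 in carriers (n = 7) and 3.15 ± 0.105 in non-carriers (n = 8). Whether that gap differed between the treatments was not tested.

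**Figure D2:**
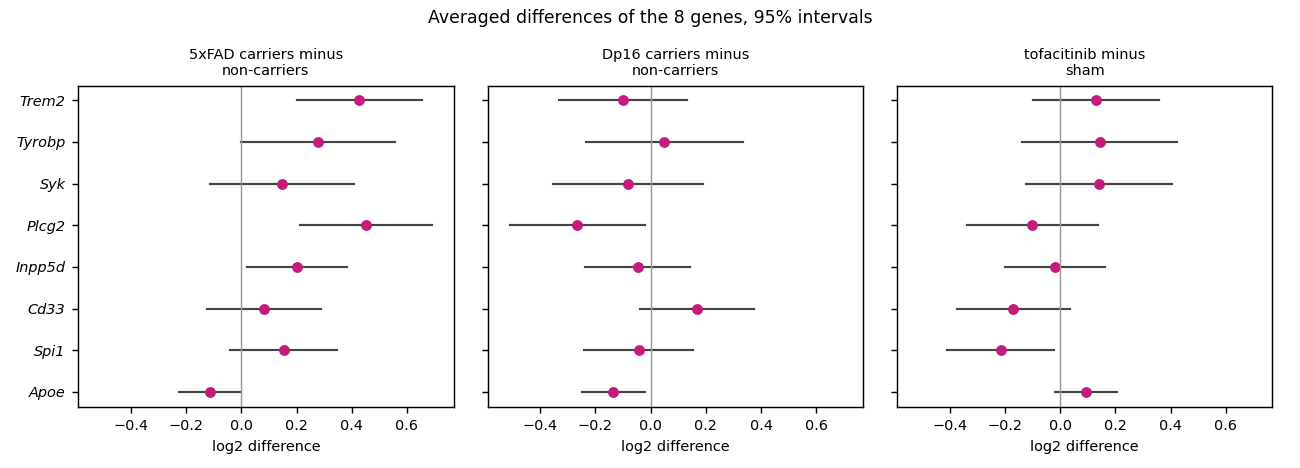
Log2 difference (horizontal axes) of each of the 8 genes (rows) for 5xFAD carriers minus non-carriers, Dp16 carriers minus non-carriers and tofacitinib minus sham, each averaged over the other factors. Points are edgeR estimates and lines 95% intervals that are not adjusted for the number of genes. Trem2 (0.43) and Plcg2 (0.45) lie farthest from 0 on the left, where Apoe (-0.11) is the gene below 0.

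Markers of the cells that carry Trem2 had a higher median sum in 5xFAD carriers, with overlapping ranges. The 16 microglia markers summed to a median of 909.9 CPM in 5xFAD carriers (787.3 to 1118) and of 812.5 CPM in non-carriers (688.6 to 962.2). The 1118 CPM were those of 5xFAD tofacitinib 2, and without both libraries that stood apart the median was 909.6 CPM in carriers (787.3 to 1033, n = 15) and 812.8 CPM in non-carriers (688.6 to 962.2, n = 17). Of the 16, 12 had a positive difference and 1 was called higher, Csf1r, the receptor for the growth factor that microglia need (log2 difference 0.31, SE 0.070, adjusted p = 0.0378). Among all genes 50.7% had a positive difference and 0.193% were called higher. Relative to the mean log2 level of these markers, Trem2 stood at -0.83 ± 0.268 in carriers (SD, n = 16) and at -1.16 ± 0.230 in non-carriers (SD, n = 18), a difference of 0.33 on the log2 scale. Plcg2 differed by 0.32 and Tyrobp by 0.16 on the same scale, and Syk, Inpp5d, Spi1 and Cd33 by values between -0.056 and 0.090. Apoe stood at 5.91 ± 0.187 in carriers (SD, n = 16) and at 6.13 ± 0.0735 in non-carriers (SD, n = 18), with 2 of 16 carriers above the non-carrier median. The part of the markers in the differences of the 8 genes was not tested.

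Of 15 genes known to switch on in microglia at plaques, 13 were tested and 7 rose in 5xFAD carriers, with a median log2 difference of 0.56 over the 13. Among all genes 0.193% were called higher. Cst7, a cysteine protease inhibitor, averaged 6.085 ± 4.32 CPM in carriers (n = 16) and 0.1858 ± 0.274 CPM in non-carriers (n = 18), and its log2 difference was 5.42 (SE 0.59, adjusted p = 1.345e-06). Clec7a, the receptor Dectin-1, rose by 2.56 (SE 0.33, adjusted p = 4.302e-05). The chemokine gene Ccl6 rose by 1.36 (SE 0.20, adjusted p = 0.000578) and the integrin gene Itgax by 2.29 (SE 0.37, adjusted p = 0.00196), all on the log2 scale. The log2 differences of 7 of the 13 were above that of Trem2 and those of 6 were not, among them Gpnmb at 0.40 (adjusted p = 0.177), Spp1 at 0.21 (adjusted p = 0.514) and Cd9 at -0.16 (adjusted p = 0.331). The list summed to 782.1 CPM in 5xFAD tofacitinib 2, the highest library, and to 397.6 CPM in wild-type sham 2, the lowest. With both left out, the list summed to a median of 519.3 CPM in carriers (424.6 to 584.1, n = 15). The median in non-carriers was then 439.9 CPM (400.3 to 482.1, n = 17). In that fit, which called 65 of all genes, 7 of the 13 genes rose, a repeat chosen after the data were seen.

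The rest of the pathway was read from 5 lists, in which 0 genes passed edgeR's test between 5xFAD carriers and non-carriers; those with an unadjusted p under 0.05 are given for each list, beside 20.3% of all genes under that p and 50.7% of all genes with a positive difference. Of 30 receptor relatives, co-receptors and kinases below Tyrobp, 24 were tested and 19 had a positive difference, 4 with an unadjusted p under 0.05, with a median of 0.059 on the log2 scale. Of 17 phosphatases, adaptors, ubiquitin ligases, inhibitory receptors and Siglec relatives of Cd33, among them Siglech, which pairs with Tyrobp, 14 were tested, 11 were positive, 3 had an unadjusted p under 0.05 and the median was 0.14. The 13 sheddases and ligand-side genes had 12 tested, 6 positive, 1 under that p and a median of -0.014. Apoe receptors and lipid transport genes had 19 of 20 tested, 15 positive, 7 under that p and a median of 0.10. Myeloid transcription factors had 15 of 16 tested, 12 positive, 3 under that p and a median of 0.079. Sall1, among the latter, had an adjusted p of 0.0535 in this edgeR fit. It passed with edgeR without both libraries that stood apart (log2 difference 0.26, adjusted p = 0.0495).

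The 5xFAD difference was then taken within each treatment and each Dp16 state. Trem2 was higher by 0.54 on the log2 scale in 5xFAD than in wild-type mice on tofacitinib (SE 0.20, adjusted p = 0.743) and by 0.41 on sham (SE 0.21, adjusted p = 0.227). In 5xFAD-Dp16 against Dp16 mice it was higher by 0.47 on tofacitinib (SE 0.21, adjusted p = 0.985) and by 0.29 on sham (SE 0.26, adjusted p = 0.719), a value that was 0.085 without Dp16 sham 1. All 4 estimates were positive and none passed. With a trend on gene length removed from each library the sham values were 0.69 against wild-type (adjusted p = 0.0507) and 0.54 against Dp16 (adjusted p = 0.879). All genes together passed in 0.017% of cases in each of the comparisons of 5xFAD with wild-type mice and in 0.00567% in each of those of 5xFAD-Dp16 with Dp16 mice.

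Plcg2 was higher by 0.62 on the log2 scale in 5xFAD than in wild-type mice on sham (SE 0.22, adjusted p = 0.0904), and the groups did not overlap, with 5.509 to 7.605 CPM in 5xFAD and 2.341 to 5.402 CPM in wild-type. Of all genes, 4.94% had 5xFAD sham libraries wholly above wild-type sham ones. On tofacitinib the difference between 5xFAD and wild-type was -0.14 (SE 0.21, adjusted p = 0.952), or -0.00085 without wild-type tofacitinib 3 and -0.27 without wild-type tofacitinib 1, and the groups overlapped. In 5xFAD-Dp16 against Dp16 mice Plcg2 was higher by 0.72 on tofacitinib (SE 0.23, adjusted p = 0.814) and by 0.60 on sham (SE 0.27, adjusted p = 0.696), where the sham libraries had 5.318 to 5.782 CPM in 5xFAD-Dp16 and 2.87 to 4.315 CPM in Dp16. Inpp5d also did not overlap there, with 13.55 to 16.24 CPM in 5xFAD-Dp16 sham and 10.19 to 13.11 CPM in Dp16 sham, and 10.1% of all genes lay wholly above in that comparison.

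Spi1 showed no overlap between 5xFAD and wild-type mice on tofacitinib. The 5xFAD libraries had 5.657, 5.745, 5.965, 5.413 and 5.85 CPM, against 3.58, 4.442, 4.334, 3.924 and 3.548 CPM in wild-type. The log2 difference was 0.53 (SE 0.17, adjusted p = 0.668), and 0.397% of all genes had their 5xFAD libraries wholly above. On sham the same difference was 0.17 (SE 0.18, adjusted p = 0.581), with 4.209 to 7.321 CPM in 5xFAD and 4.056 to 6.184 CPM in wild-type. Tyrobp differed between 5xFAD and wild-type by 0.60 on tofacitinib (SE 0.25, adjusted p = 0.761) and by -0.0097 on sham (SE 0.26, adjusted p = 0.986), while the interaction of tofacitinib and 5xFAD was 0.41 (SE 0.27, adjusted p = 0.454), and 0.072 with the length trend removed. Without both libraries that stood apart, the tofacitinib differences between 5xFAD and wild-type were 0.30 for Tyrobp, 0.40 for Trem2 and 0.52 for Spi1 on the log2 scale.

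**Figure D3:**
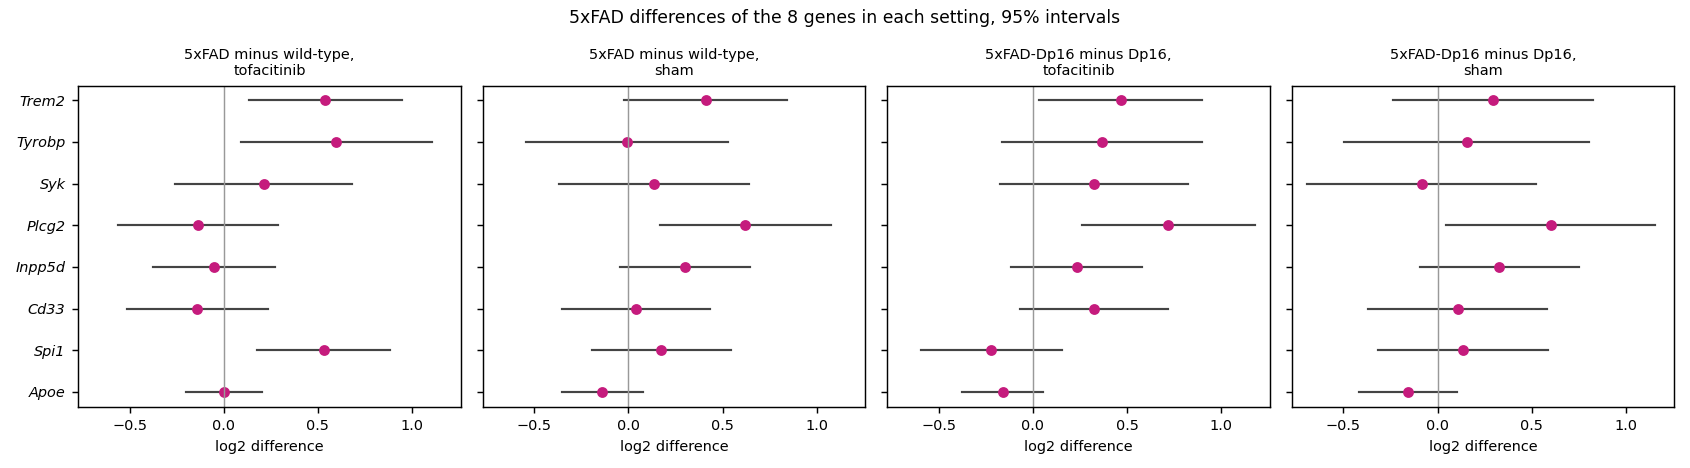
Log2 difference (horizontal axes) of each of the 8 genes (rows) for carriers of the 5xFAD transgenes minus matched mice without them, in 4 settings. Points are edgeR estimates and lines 95% intervals, not adjusted for the number of genes. Trem2 is above 0 in all 4 panels (0.54, 0.41, 0.47 and 0.29), while Plcg2 is at -0.14 in the first and between 0.60 and 0.72 in the others.

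Sex was a term in the fits, other than in the alternative that left it out. Trem2 averaged 24.19 ± 5.45 CPM in female carriers (n = 7), against 15.77 ± 3.36 CPM in female non-carriers (n = 9), and 21.70 ± 5.04 CPM in male carriers (n = 9), against 17.59 ± 4.01 CPM in male non-carriers (n = 9). The interaction of 5xFAD and sex was 0.36 on the log2 scale for Trem2 (SE 0.22, 95% interval -0.091 to 0.80), and all 8 genes had a positive interaction, with a median of 0.21 against -0.0054 over all genes. With edgeR 0 of the 8 had an unadjusted or an adjusted p under 0.05. Of all genes, 48.7% had a positive interaction and 3.19% an unadjusted p under 0.05, and 0% passed at an adjusted p. Without both libraries that stood apart the interaction was 0.25 for Trem2 and -0.022 for Apoe, so that the sign of Apoe turned. The microglia markers summed to a median of 934.9 CPM in female carriers, against 810.8 CPM in female non-carriers, and of 904 CPM in male carriers, against 815.4 CPM in male non-carriers.

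Dp16 carriers were compared with mice without the duplication, averaged over the 5xFAD state and treatment. None of the 8 genes passed with edgeR, DESeq2 or limma-voom. With edgeR 2 of the 8 had an unadjusted p under 0.05, as had 13.7% of all genes (2421 of 17632). At an adjusted p 2.14% of all genes passed, 1.17% higher and 0.975% lower. Apoe averaged 2359 ± 237 CPM in Dp16 carriers (SD, n = 15) and 2613 ± 359 CPM in non-carriers (SD, n = 19), a log2 difference of -0.13 (SE 0.056, adjusted p = 0.257). Plcg2 averaged 4.31 ± 1.31 CPM in Dp16 carriers and 5.27 ± 1.45 CPM in non-carriers, a log2 difference of -0.27 (SE 0.12, adjusted p = 0.310). Its difference of Dp16 against wild-type mice on tofacitinib was -0.76 (SE 0.22, adjusted p = 0.214), with 2.702 to 4.267 CPM in Dp16 and 3.419 to 7.668 CPM in wild-type, and 0.034% of all genes were called lower there. Cd33 averaged 9.04 ± 1.46 CPM in Dp16 carriers and 8.06 ± 1.87 CPM in non-carriers (log2 difference 0.17, SE 0.10, adjusted p = 0.496). Trem2 (-0.099), Syk (-0.083), Inpp5d (-0.047), Spi1 (-0.044) and Tyrobp (0.050) had smaller log2 differences, with adjusted p between 0.772 and 0.923. Without both libraries that stood apart the differences were -0.093 for Apoe, -0.19 for Plcg2 and 0.16 for Tyrobp.

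Some neighbours of the 8 genes did change in Dp16 carriers, where 1.17% of all genes were called higher and 0.975% lower. Clu, an apolipoprotein that Trem2 can bind, fell by 0.23 on the log2 scale (SE 0.046, adjusted p = 0.00296), 1 of 12 tested sheddases and ligand-side genes. Lcat, which esterifies cholesterol on lipoproteins that carry Apoe, rose by 0.42 (SE 0.065, adjusted p = 0.000110), 1 of 19 tested receptor and lipid transport genes. Of 15 tested myeloid transcription factors 3 fell: Fli1, an Ets factor (fell by 0.37, SE 0.076, adjusted p = 0.00494), Bhlhe41 (fell by 0.31, SE 0.071, adjusted p = 0.0124) and Sall1, which maintains microglial identity (fell by 0.30, SE 0.071, adjusted p = 0.0158). Among the 16 microglia markers P2ry12, a purine receptor, fell by 0.21 (SE 0.057, adjusted p = 0.0397), and the 16 summed to a median of 857.3 CPM in Dp16 carriers (688.6 to 1004) and of 880.5 CPM in non-carriers (751.4 to 1118). With 5xFAD tofacitinib 2 and wild-type sham 2 left out, 3 of the 16 fell, again a repeat chosen after the data were seen. That fit called 669 of all genes. On the 5 pathway lists it also called Mef2a (-0.18), Abcg1 (-0.20), Nr1h3 (0.48) and Cd22 (1.33). Single genes on other marker lists were also called. Ch25h, an oxysterol enzyme gene on the list of plaque-associated microglia, rose by 1.65 (SE 0.44, adjusted p = 0.0397). Its level was low. Its means by 5xFAD state, which are not those behind the Dp16 difference, were 0.483 CPM in 5xFAD carriers and 0.2832 CPM in mice without 5xFAD. The astrocyte marker Fgfr3 fell by 0.28 (SE 0.056, adjusted p = 0.00420) and the oligodendrocyte marker Cnp by 0.25 (SE 0.067, adjusted p = 0.0397). Without both libraries that stood apart, the Dp16 difference was positive for 6 of 13 plaque-associated genes and 6 of 10 astrocyte markers. It was positive for 1 of 6 oligodendrocyte markers, 7 of 16 microglia markers, 0 of 8 neuron markers (median log2 difference -0.12) and 0 of 6 striatum markers (-0.62). Among markers of border macrophages and monocytes it was positive for 7 of 8 (0.49), and among choroid plexus markers for 5 of 5 (0.39). The part of tissue makeup in the Dp16 differences was not tested.

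The interaction of 5xFAD and Dp16 asks whether both lesions together gave more or less than their sum. Its largest values were 0.42 for Plcg2 (SE 0.23, adjusted p = 0.995) and -0.40 for Spi1 (SE 0.19, adjusted p = 0.995) on the log2 scale, and those of the other 6 genes lay between -0.095 and 0.26. The value of Spi1 was -0.25 without Dp16 sham 3. Of all genes 0.00567% passed. On tofacitinib, Spi1 did not overlap between the single and the double carriers, with 3.684 to 5.223 CPM in 5xFAD-Dp16 and 5.413 to 5.965 CPM in 5xFAD (log2 difference -0.41, SE 0.18, adjusted p = 0.556), where 1.57% of all genes lay wholly below and 0.238% passed. The log2 difference of Apoe in 5xFAD-Dp16 against wild-type mice on sham was -0.21 (SE 0.12, adjusted p = 0.375), with 2088, 2176 and 2314 CPM in 5xFAD-Dp16, all below the 2324 to 2835 CPM of wild-type, and 3.96% of all genes lay wholly below.

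Tofacitinib was set against sham, averaged over the 4 genotypes. None of the 8 genes passed with edgeR, DESeq2 or limma-voom, 1 had an unadjusted p under 0.05 with edgeR, and 0% of all genes passed (592 with an unadjusted p under 0.05, 2 called by DESeq2 and 0 by limma-voom). That gene was Spi1, which averaged 4.78 ± 0.820 CPM on tofacitinib (SD, n = 19) and 5.48 ± 1.18 CPM on sham (SD, n = 15), a log2 difference of -0.21 (SE 0.095, adjusted p = 0.935), or -0.14 without Dp16 sham 3. In wild-type mice its difference was -0.41 (SE 0.17, adjusted p = 0.679), with tofacitinib libraries at 3.548 to 4.442 CPM and sham libraries at 4.056 to 6.184 CPM. Cd33 (-0.17), Plcg2 (-0.10) and Inpp5d (-0.018) were below 0, and Apoe (0.095), Trem2 (0.13), Syk (0.14) and Tyrobp (0.14) above 0, all with an adjusted p of 0.935 or 0.983. Without both libraries that stood apart Spi1 was at -0.22, Trem2 at 0.085, Tyrobp at 0.082 and Apoe at 0.052 on the log2 scale.

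Within 5xFAD mice alone, Plcg2 averaged 4.90 ± 1.04 CPM on tofacitinib (SD, n = 5) and 6.70 ± 0.874 CPM on sham (SD, n = 4), and the groups overlapped. The log2 difference was -0.42 (SE 0.22, adjusted p = 0.353), and the interaction of tofacitinib and 5xFAD was -0.32 (SE 0.23, adjusted p = 0.495). With limma-voom and sample weights both passed, at -0.66 (adjusted p = 0.0113) and -0.56 (adjusted p = 0.0367), in fits that called 17.2% and 21.4% of all genes.

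Differences between mice of 1 group were shared by some of the 8 genes. With group and sex removed from the log2 CPM values, Trem2 and Tyrobp deviated together over the 34 libraries (Pearson's r 0.76), and Tyrobp ranked 5 of 14474 genes in likeness to Trem2. Apoe followed Trem2 (0.61) and Tyrobp (0.65), and Plcg2 followed Syk (0.59). Many genes were closer, as Apoe ranked 151 in likeness to Trem2. In likeness to Apoe, Tyrobp ranked 338 and Trem2 509 of 14474. The value for Trem2 and Plcg2 was 0.028, and Inpp5d ran opposite to Trem2 (-0.41) and Tyrobp (-0.46). These correlations come from libraries that share depth and tissue makeup, and they are given as a description. No trend on gene length was removed from them. By the gene lengths that the deposited RPKM values imply, Tyrobp (0.564 kb), Trem2 (1.14 kb) and Apoe (1.84 kb) were the shortest of the 8, before Spi1 (2.03 kb). Plcg2 (4.3 kb), Inpp5d (4.98 kb), Syk (6.03 kb) and Cd33 (6.08 kb) were longer. With all annotated exons counted, Trem2 has 4946 bases, more than Apoe (2138), Spi1 (2695) and Plcg2 (4298). The part of gene length in these correlations was not tested.

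**Figure D4:**
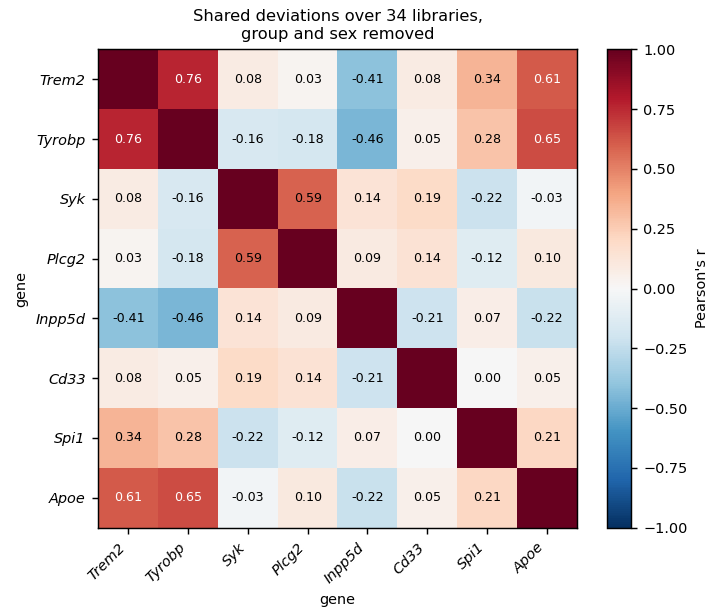
Pearson's r between each pair of the 8 genes over 34 libraries, computed on log2 CPM with group and sex removed. No trend on gene length was removed. Red is positive and blue negative. Trem2, Tyrobp and Apoe are positive against each other (0.61 to 0.76), as are Syk and Plcg2 (0.59), and Inpp5d is negative against Trem2 and Tyrobp.

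The genes whose deviations were most like those of Trem2 were Jam3 (r 0.82), a junction molecule, Siglech (0.79), C1qa (0.77) and C1qb (0.76), which microglia express, then Tyrobp (0.76) and Myl12a (0.74). Without the libraries that stood apart, Jam3 (0.80) and Siglech (0.76) still led, but the other 4 left the first 6 and Tyrobp ranked 9 (r 0.74). Their differences between 5xFAD carriers and non-carriers did not pass, at -0.14 for Jam3 (adjusted p = 0.300), 0.12 for Siglech (adjusted p = 0.381), 0.12 for C1qa (adjusted p = 0.335) and 0.17 for C1qb (adjusted p = 0.178) on the log2 scale. Most like Apoe were Glud1 (0.91), glutamate dehydrogenase, Sparc (0.87), Pea15a (0.87), C1qb (0.86), Lap3 (0.86) and Pdpn (0.86). Without both libraries Glud1 (0.86), C1qb (0.82) and Sparc (0.80) stayed among the first 6 and the other 3 did not, and the value for Trem2 and Apoe was 0.56.

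Whether Trem2 passed depended on the setting. Its log2 difference between 5xFAD carriers and non-carriers ran from 0.38 to 0.56 over 9 alternatives and from 0.38 to 0.47 when each of the 34 libraries was left out in turn. It passed with DESeq2 (0.42, adjusted p = 0.0152), limma-voom (0.43, adjusted p = 0.0175), without the filter on low counts (0.43, adjusted p = 2.857e-06) and with a trend on gene length removed from each library (0.56, adjusted p = 0.00223). DESeq2 called 627 (6.93%) of the 9052 genes to which it gave an adjusted p, and limma-voom called 589 (3.34%) of 17632. The fit without the filter called 1358 (4.24%) of 32026, and the one with the length trend removed called 123 (0.698%) of 17632. Gene lengths in the latter were those implied by RPKM, with 1.14 kb for Trem2, against 4946 bases of annotated exons. Tyrobp, with 0.564 kb the shortest of the 8, moved to 0.48 with the length trend removed and passed (adjusted p = 0.00994), and in sham mice alone its 5xFAD difference against wild-type moved to 0.44 (adjusted p = 0.153). Plcg2 passed with limma-voom (0.39, adjusted p = 0.0267) and without the filter (0.45, adjusted p = 0.0107), and Apoe with limma-voom (-0.14, adjusted p = 0.0411). Removing the length trend left Apoe at -0.054 (adjusted p = 0.570).

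**Figure D5:**
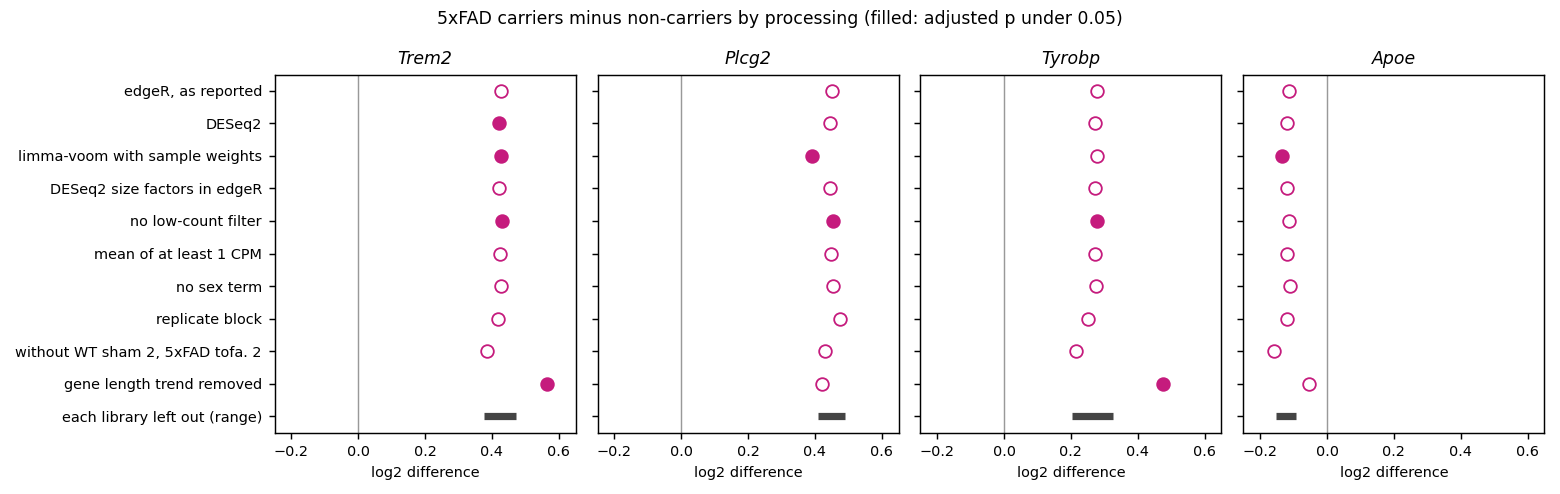
Log2 difference between 5xFAD carriers and non-carriers (horizontal axes) for Trem2, Plcg2, Tyrobp and Apoe under the main fit and 9 alternatives (rows); filled points passed an adjusted p of 0.05 and open ones did not. The bottom bars span the values with each library left out. Trem2 stays between 0.38 and 0.56 and is filled in 4 rows, and Apoe stays below 0 in every row.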

How the data were processed

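Cortex RNA was extracted with TRIzol and made into strand-specific poly-A libraries, per the labels' protocols; 1 library came from each of 34 mice. The deposited table holds whole-number counts per gene, and a second table holds RPKM, which the authors scaled by gene length and column total; RPKM recomputed from the counts matched within a relative 8.88e-15, so RPKM served for levels between genes and for lengths. Per the submitters' processing notes, HTSeq 0.6.1, HISAT2 2.1.0, FastQC 0.11.5 and SAMtools 1.5 were used with build GRCm38; the strand setting is not given in the sources used here. The series description counts 1 more mouse in 5xFAD tofacitinib and in 5xFAD-Dp16 sham than were analysed here.

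The counts of all 34 libraries were fitted with edgeR 4.0.16 in R 4.3.3 by quasi-likelihood, with a term per group and one for sex, filterByExpr and TMM scaling. Two-sided F-tests were adjusted by Benjamini-Hochberg over 17632 genes and called under 0.05 in each of 21 comparisons, which share groups. SE is the log2 difference divided by the root of F, CPM uses TMM-scaled totals, and correlations use log2 CPM with a prior count of 2. P-values measure the spread between mice. The fit was tested on simulated counts. Alternatives used DESeq2 1.42.0 and limma 3.58.1 among others. The 8 genes, the lists and the tests were chosen with earlier results of these data known, and from each list up to 4 called genes were named by smallest adjusted p, with the 6 genes most like Trem2 and most like Apoe among those averaging 1 CPM or more. Sham and tofacitinib mice share replicate numbers, but same-numbered libraries did not deviate together.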

Additional observations from a re-analysis of the deposited data

Results flagged for a closer look

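Each gene and group of 4 to 10 mice was examined for a library far from the others by Dixon's criterion at the 95% level, 48 combinations in all, of which chance flags about 1 in 20; 3 stood out. Apoe in 5xFAD tofacitinib replicate 2 was 3637 CPM, and the nearest of the other mice had 2666 CPM; this library also stood apart in its cell type markers. Syk in 5xFAD sham replicate 1 was 6.647 CPM, and the nearest had 4.654 CPM. Plcg2 in Dp16 tofacitinib replicate 5 was 4.267 CPM, and the nearest had 3.121 CPM. No interaction of the 8 genes passed with edgeR; limma-voom called that of tofacitinib and 5xFAD for Plcg2.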

How the results depend on the processing

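With edgeR 0 of the 8 genes passed in any of the 21 comparisons. Between 5xFAD carriers and non-carriers the count was 1 with DESeq2 (Trem2), 3 with limma-voom (Trem2, Plcg2, Apoe), 3 without the low-count filter (Trem2, Tyrobp, Plcg2), 2 with the length trend removed (Trem2, Tyrobp), and 0 to 2 with each library left out: Plcg2 passed without wild-type sham 3 (adjusted p = 0.0414), Dp16 tofacitinib 5 (0.0499) or 5xFAD-Dp16 tofacitinib 3 (0.0447), and both Trem2 and Plcg2 without wild-type tofacitinib 3 (0.0444 each). Elsewhere limma-voom called 1 gene (Plcg2) in 5xFAD against wild-type on sham, in tofacitinib against sham within 5xFAD and in the interaction of tofacitinib and 5xFAD. The fit without the filter called 2 (Trem2, Tyrobp) in 5xFAD against wild-type and 1 (Tyrobp) in 5xFAD-Dp16 against wild-type, both on tofacitinib, and removing the length trend called 1 (Apoe, -0.16, adjusted p = 0.0492) between Dp16 carriers and non-carriers. The cause was not tested.

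Calls over all genes between 5xFAD carriers and non-carriers numbered 74, against 627 with DESeq2, 589 with limma-voom, 1358 without the filter, 17 with the replicate block, 123 with the length trend removed, and 15 (without Dp16 sham 2) to 293 (without wild-type sham 3) with each library left out; it moved by over 1.5 times with 21 of the 34 libraries left out, upward also without 5xFAD tofacitinib 2 (249), 5xFAD-Dp16 tofacitinib 3 (249) or wild-type tofacitinib 5 (117). Between Dp16 carriers and non-carriers they numbered 378, against 1760, 672 and 206 with limma-voom, no filter and the replicate block, and 669 without both libraries that stood apart. For tofacitinib against sham they numbered 0, against 2 with DESeq2 and 51 without the filter. Replicate numbers were no pairing (r from -0.13 to 0.078 over 14 same-numbered pairs), and with the replicate block 0 of the 8 genes passed.

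Signs turned only near 0 among the averaged differences: Tyrobp between Dp16 carriers and non-carriers was -0.0090 with the length trend removed and -0.0081 to 0.14 with each library left out, Inpp5d for tofacitinib against sham 0.024 with limma-voom, 0.040 with the replicate block and -0.047 to 0.011 with each library left out, and Spi1 between Dp16 carriers and non-carriers -0.14 to 0.011 with each library left out. Reads were few for Syk, Plcg2 and Spi1, which limits their precision.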
